A study of Mus musculus with 3 samples.

Results

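Collagen hydroxylases and crosslinking enzymes were followed in PDL-L2, an immortalised fibroblast-like line derived from mouse periodontal ligament. Every probe set whose annotation gave P4ha1, P4ha2, P4ha3, P4hb, Plod1, Plod2, Plod3, Lox, Loxl1 or Loxl2 as its only gene symbol was taken. This gave 15 probe sets for 9 of the 10 genes, out of 45101 probe sets and 18193 named genes on the array. Loxl2 had no such probe set and is not analysed here, since the 2 probe sets that carry its symbol also carry another. The question asked of the data was whether these enzymes, several of which are known targets of the hypoxia-inducible factors, were higher in cells given siRNA against endoglin. Total RNA was read on 3 arrays. The vehicle array held cells transfected with a non-targeting siRNA pool (siCont) and given vehicle. The BMP-2 array held siCont cells given recombinant human BMP-2 at 250 ng/ml, and the siENG array held cells transfected with a pool against endoglin (siENG) and given BMP-2 at that dose. Exposure lasted 12 h from 48 h after transfection. The labels describe a medium with ascorbic acid, a cofactor of the hydroxylases, and beta-glycerophosphate, and name no oxygen treatment for any array. Cells with endoglin siRNA and vehicle were not analysed here. Each condition had 1 array, so differences could not be set against replicate error, and no p-values are given.

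Collagen chains are modified inside the endoplasmic reticulum and joined outside the cell. Prolyl 4-hydroxylase, built from catalytic alpha subunits (P4ha1 to P4ha3) and a beta subunit that is protein disulfide isomerase (P4hb), hydroxylates proline residues and so lets the triple helix hold at body temperature. The lysyl hydroxylases (Plod1 to Plod3) hydroxylate lysine residues, with Plod2 known for those of the telopeptides, and both enzyme families need oxygen, iron, alpha-ketoglutarate and ascorbate. The copper enzymes of the lysyl oxidase family (Lox, Loxl1, Loxl2) then oxidise lysine and hydroxylysine side chains of collagen and elastin, from which covalent crosslinks form. P4ha1, P4ha2, Plod2 and Lox are known to be induced by low oxygen through the hypoxia-inducible factors, and the ligament depends on crosslinked collagen to carry load.

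Promoter sequence is shown for P4ha1 and P4ha2, the alpha subunits with the larger differences between arrays, and for P4hb, their partner, which stood near the middle of all genes. RefSeq promoter windows (GRCm38.p6) were matched for 6 of the 10 members. Each line gives the 250 bases before the listed transcript start, 5′ to 3′ on the gene's strand. Capitals mark matches to ACGTG or GCGTG on either strand, the core letters recognised by the hypoxia-inducible factors, and overlapping matches were counted separately.
P4ha1, chr10:59323046-59323295, plus strand: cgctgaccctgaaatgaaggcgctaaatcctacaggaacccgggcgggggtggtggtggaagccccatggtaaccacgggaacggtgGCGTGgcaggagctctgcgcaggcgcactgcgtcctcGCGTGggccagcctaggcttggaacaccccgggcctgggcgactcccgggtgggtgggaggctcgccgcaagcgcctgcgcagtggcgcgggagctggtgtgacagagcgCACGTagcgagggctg
P4ha2, chr11:54100674-54100923, plus strand: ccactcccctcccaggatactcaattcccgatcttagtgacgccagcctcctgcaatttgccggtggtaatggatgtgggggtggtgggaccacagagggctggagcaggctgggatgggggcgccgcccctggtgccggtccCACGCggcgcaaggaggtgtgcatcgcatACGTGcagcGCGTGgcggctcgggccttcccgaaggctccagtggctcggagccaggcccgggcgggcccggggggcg
P4hb, chr11:120573254-120573503, minus strand: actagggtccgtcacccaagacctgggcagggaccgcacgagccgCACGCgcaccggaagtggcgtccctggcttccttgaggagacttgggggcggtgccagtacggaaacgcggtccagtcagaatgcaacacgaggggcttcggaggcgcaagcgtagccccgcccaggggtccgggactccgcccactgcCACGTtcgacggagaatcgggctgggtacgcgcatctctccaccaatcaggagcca
The P4ha1 window held 3 matches, which began 163, 126 and 16 bases before the start, and the P4ha2 window held 3, at 107, 78 and 69 bases. The P4hb window held 2, at 205 and 56 bases. Among the other matched members Plod3 had 4 matches, Plod1 had 1 and P4ha3 had 0. Of 32851 mouse promoter windows of this length, 38.6% held at least 1 match, 6.58% held 3 or more and 2.58% held 4 or more. A match is a run of letters and was not examined for binding.

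Endoglin, the target of the siRNA, was read by a brighter probe set at 286 on the vehicle array, 298.5 on the BMP-2 array and 108 on the siENG array. Signals are linear intensities as deposited. Below, the knockdown ratio is the siENG array over the BMP-2 array, and the BMP-2 ratio is the BMP-2 array over the vehicle array. The log2 knockdown ratio of endoglin was -1.46 and -1.41 in its 2 probe sets. The siENG array was brighter as a whole, with a 2% trimmed mean signal of 166 against 143 and 141 on the BMP-2 and vehicle arrays. Probe sets whose brighter signal reached 23.0, the median over the arrays, had a median log2 knockdown ratio of 0.21. A ratio divided by this median is called centred below, and both forms are given. The robust SD quoted beside a log2 ratio is the spread over probe sets of similar signal on the same arrays, and includes any true differences. It is a spread about their own median, so it bears on the centred ratio rather than the deposited one. Control probe sets for Bacillus transcripts, which mouse RNA does not hold, reached at most 13.1, and a signal at or under this value was treated as a bound. Of 14 ligament fibroblast markers matched, 11 passed 23.0 on at least 1 array, among them Postn, Col1a1, Col3a1 and Pdgfrb, while Aspn, Tnmd and Thy1 stayed within the range of the Bacillus controls on every array. Of 12 markers of leukocytes, endothelium and epithelium, 5 passed 23.0 on at least 1 array (Cd68, Csf1r, Lyz2, Krt14 and Epcam), and Ptprc, Cd3e, Pecam1, Cdh5 and Tek stayed within the control range. The summed signal of those 12 was 226 on the vehicle, 196.5 on the BMP-2 and 283 on the siENG array, and their part in the results was not tested. Single markers differed between the siENG and BMP-2 arrays. Cd68, a macrophage marker, was at 118 on the siENG and 50 on the BMP-2 array, with a log2 ratio of 1.23 as deposited and 1.02 after centring. The myeloid markers Csf1r and Lyz2 had log2 ratios of 0.60 and 0.49 as deposited. After centring these were 0.39 and 0.28, inside the robust SDs of 0.49 and 0.56. The epithelial marker Epcam had -1.18 as deposited and -1.39 after centring, with a siENG signal of 11.9 inside the Bacillus range.

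P4ha1, a catalytic alpha subunit found in most cells, had the largest knockdown ratio of the 9 genes. Its brighter probe set had signals of 424 on the vehicle array, 376 on the BMP-2 array and 1523 on the siENG array. The siENG array stood far above both siCont arrays, which lay close together. The knockdown ratio was 4.05, on the log2 scale 2.02 with a robust SD of 0.27, and 3.50 after centring. The second probe set of P4ha1 had signals of 312, 299.6 and 875 in the same order, a log2 knockdown ratio of 1.55 and a centred ratio of 2.53. The log2 ratios of the pair of probe sets differed by 0.47. Among 2444 genes with 2 probe sets at or above a mean signal of 152, the 75th percentile, the median such difference was 0.13 and the 90th percentile 0.38. Both probe sets thus placed P4ha1 higher on the siENG array, by sizes further apart than in most genes.

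P4ha2, the other widely used alpha subunit, was read by 1 probe set at 531 on the vehicle array, 583 on the BMP-2 array and 1029 on the siENG array. Its knockdown ratio was 1.76, on the log2 scale 0.82 with a robust SD of 0.27, and 1.52 after centring. The direction was that of P4ha1, and the ratio did not reach 2. P4ha3, an alpha subunit of restricted expression, was dim on every array, with signals of 15.8, 22.1 and 24.9. It passed the limit of 23.0 only through its siENG signal. Its log2 knockdown ratio was 0.17 as deposited and -0.04 after centring, the latter inside the robust SD of 0.56.

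P4hb, the beta subunit and a disulfide isomerase of the endoplasmic reticulum in its own right, had signals of 4079.7 on the vehicle array, 4327 on the BMP-2 array and 4756 on the siENG array. Its log2 knockdown ratio was 0.14 as deposited and -0.07 after centring, the latter inside the robust SD of 0.22. The subunits of the same enzyme therefore differed in their knockdown ratios on these arrays, with 4.05 and 1.76 for P4ha1 and P4ha2 beside 1.10 for P4hb. Ero1a, the oxidase that recharges protein disulfide isomerase, had signals of 211, 189.7 and 1791.5.

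**Figure D1:**
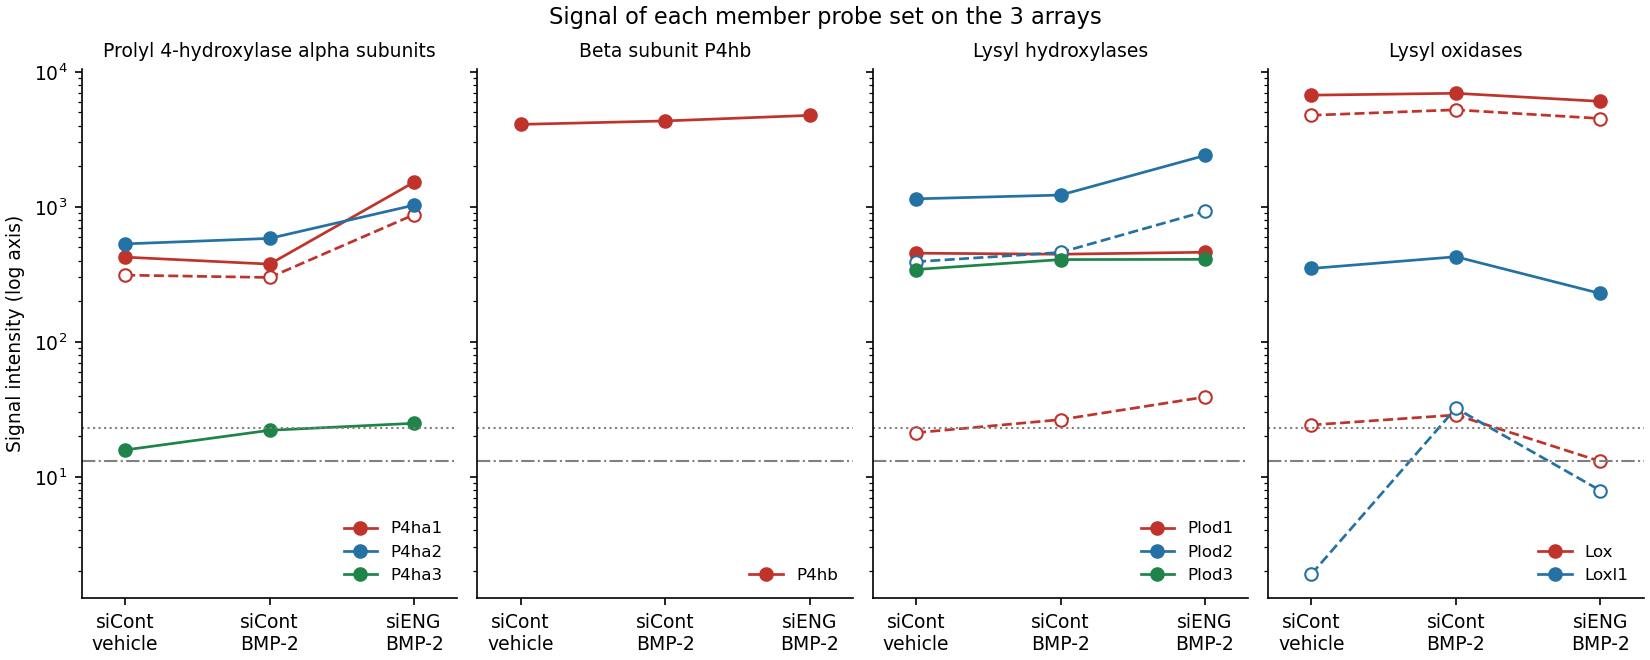
Signal intensity (log axis) of the 15 member probe sets on the 3 arrays, with filled points for the brightest probe set of a gene and open points for its others. The dotted line marks 23.0 and the dash-dotted line 13.1. In their brightest probe sets all 7 hydroxylase genes are highest on the siENG array as deposited, by the most for P4ha1, Plod2 and P4ha2. That array was brighter as a whole, and 75.1% of all genes past 23.0 are higher there than on the BMP-2 array. After centring, only P4ha1, Plod2 and P4ha2 of the members have a knockdown ratio above 1 in their brightest probe sets. The dim second probe set of Plod1 also does, at 1.27. Lox and Loxl1 are lowest on the siENG array in their brightest probe sets. The dim second probe set of Loxl1 is lowest on the vehicle array.

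Plod2, the lysyl hydroxylase of the collagen telopeptides, had signals of 1146 on the vehicle array, 1222 on the BMP-2 array and 2401 on the siENG array. The knockdown ratio was 1.97, just under 2, with a log2 value of 0.97, a robust SD of 0.22 and a centred ratio of 1.70. Its second probe set had signals of 392, 459 and 924.5, with a knockdown ratio of 2.01 and a centred ratio of 1.74. The log2 ratios of the pair differed by 0.03, so both probe sets gave nearly the same size.

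Plod1, which hydroxylates lysines of the helix, had signals of 453, 445 and 461 in the order of arrays above. Plod3, which also adds sugars to hydroxylysine, had signals of 343, 406.5 and 408. Their log2 knockdown ratios were 0.05 for Plod1 and 0.01 for Plod3. After centring they were -0.16 and -0.20, each inside the robust SD of 0.30. The second probe set of Plod1 was dim, with signals of 21.2, 26.5 and 39.0. Its log2 knockdown ratio was 0.56 as deposited and 0.35 after centring, the latter inside the robust SD of 0.49. Of the 3 lysyl hydroxylases, Plod2 was therefore the one whose brightest probe set stood apart from probe sets of similar signal.

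Lox, the founding lysyl oxidase, had signals of 6716 on the vehicle array, 6933 on the BMP-2 array and 6042 on the siENG array. The siENG array was the lowest of the 3. The log2 knockdown ratio was -0.20 as deposited and -0.41 after centring, a centred ratio of 0.754. The centred log2 value lay outside the robust SD of 0.22. A second bright probe set had signals of 4768, 5229.5 and 4509, with log2 values of -0.21 as deposited and -0.42 after centring. The third probe set was dim, with signals of 24.2, 28.7 and 13.0, and was at least 2.19-fold lower on the siENG array than on the BMP-2 array. All 3 probe sets of Lox were lower on the siENG array than on the BMP-2 array, although it is a known target of the hypoxia-inducible factors like P4ha1, P4ha2 and Plod2.

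Loxl1, the family member most tied to elastic fibres, had signals of 349 on the vehicle array, 427 on the BMP-2 array and 228 on the siENG array in its brighter probe set. The knockdown ratio was 0.534, on the log2 scale -0.90 with a robust SD of 0.33. The centred ratio was 0.462, so this probe set lay past a ratio of 0.5 after centring and not as deposited. The second probe set had signals of 1.9, 32.2 and 7.9, with the first and the last within the range of the Bacillus controls. It was at least 2.46-fold higher on the BMP-2 array than on either of the others. Both probe sets were highest on the BMP-2 array.

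Setting the siENG array against the vehicle array leaves out the BMP-2 array, though the siENG array is shared with the knockdown ratio. These 2 arrays differ in both the siRNA and BMP-2, so this is not a second reading of the knockdown. This gave ratios of 3.59 for P4ha1, 2.10 for Plod2 and 1.94 for P4ha2, and 3.08, 1.80 and 1.66 after centring. Lox had a ratio of 0.900 and Loxl1 of 0.652, and after centring 0.772 and 0.560. The centred log2 ratios of P4hb, Plod1 and Plod3 were 0.00, -0.20 and 0.03. In their brightest probe sets the same 3 hydroxylases thus stood higher, and Lox and Loxl1 lower, against either siCont array. For Lox against the vehicle array, the log2 ratio was -0.15 as deposited and -0.37 after centring. The centred value lay outside the robust SD of 0.22. For Loxl1 against the vehicle array, the mean over both its probe sets turned the log2 ratio to 0.72, since the dim one was at 1.9 and 7.9, both within the Bacillus range.

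BMP-2 alone, in siCont cells, left the 9 genes closer together. The largest log2 BMP-2 ratio among brightest probe sets past the limit was 0.29 for Loxl1, with a robust SD of 0.17, followed by 0.25 for Plod3 with a robust SD of 0.17. P4ha1 stood at -0.17, P4ha2 at 0.14, Plod2 at 0.09, P4hb at 0.08, Lox at 0.05 and Plod1 at -0.03. Of 8 members past the limit, 0 had at least a doubled signal and 0 had a BMP-2 ratio of 0.5 or less, where 1.8% and 1.57% of 10810 genes did. After centring the member counts were again 0 and 0, where 1.78% and 1.59% of genes passed. P4ha3 was under the limit in this comparison.

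Over all 9 members, the knockdown ratio was at least 2 for 1 gene (P4ha1) and at most 0.5 for 0, where 4.04% and 1.66% of 10854 genes passed these limits as deposited. After centring 1 was at or above 2 (P4ha1) and 1 at or below 0.5 (Loxl1), where 2.32% and 2.7% of genes were. The median log2 knockdown ratio of the members was 0.14 as deposited, where that of all genes past the signal limit was 0.24, and after centring -0.07, where that of all genes was 0.03. As deposited 7 of the 9 were above 0, where 75.1% of all genes were. After centring 3 of the 9 (P4ha1, Plod2 and P4ha2) were above 0, where 53.7% of all genes were. The median of the members was therefore not above that of all genes. The 3 that stood higher are hydroxylases, as are 7 of the 9 members. The other hydroxylases, P4ha3, P4hb, Plod1 and Plod3, were below 0 after centring. With the vehicle array as the base, 2 members (P4ha1 and Plod2) were at or above 2 and 0 at or below 0.5, where 3.99% and 1.73% of 10847 genes were, and after centring the member counts were 1 and 0, where 2.25% and 2.85% of genes passed.

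**Figure D2:**
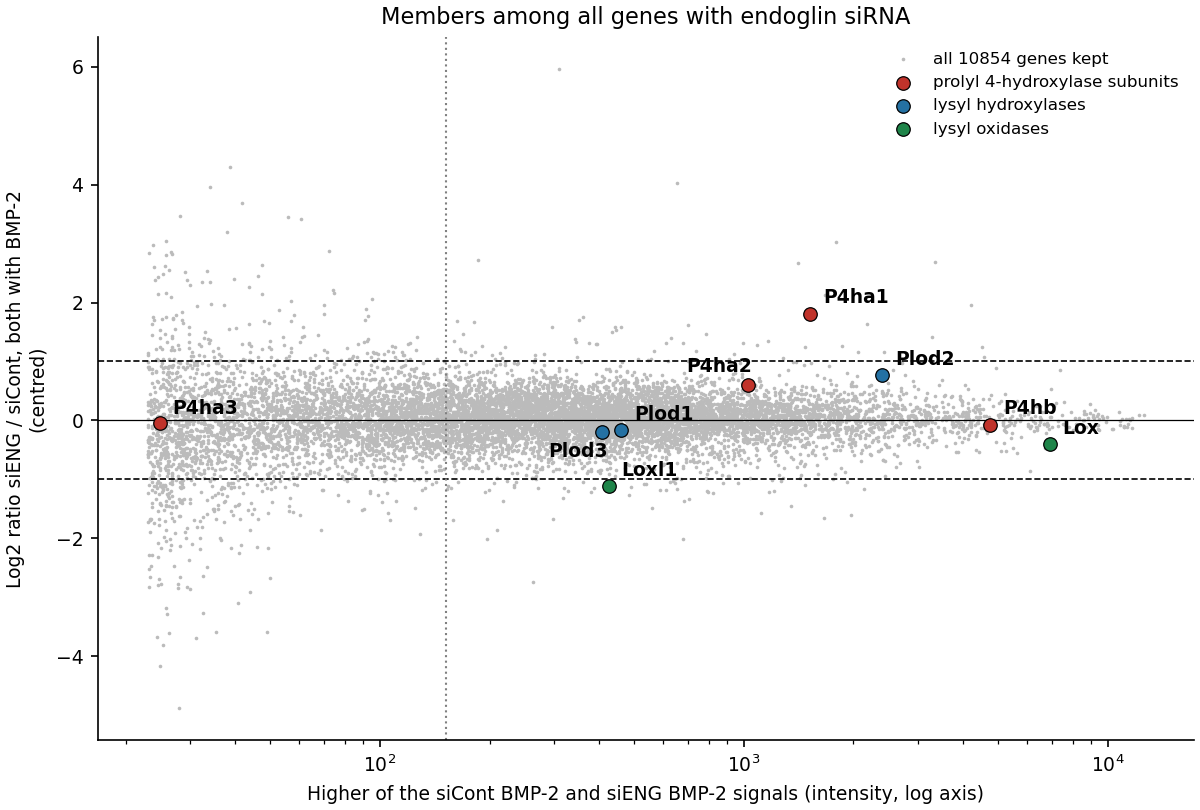
Centred log2 knockdown ratio against the brighter of the siENG and BMP-2 array signals (intensity, log axis), for 10854 genes past 23.0 in grey and the 9 members in colour, with dashed lines at ratios of 2 and 0.5 and a dotted line at a signal of 152. P4ha1 lies above a ratio of 2, Plod2 and P4ha2 between 1 and 2, and Loxl1 just under 0.5.

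Genes known as targets of the hypoxia-inducible factors, a list that held no member, were mostly higher on the siENG array. The list was chosen with earlier results of these data known. Of 33 past the limit, 21 had a knockdown ratio of at least 2 as deposited and 0 were at 0.5 or less. Of all genes 4.04% and 1.66% were. After centring the counts were 16 and 1, where 2.32% and 2.7% of all genes passed. The 1 was Hif3a, at a log2 value of -1.07 and named after its value was seen. Of the 21, 3 (Ankrd37, Ak4 and Slc16a3) passed the signal limit only through the siENG array, where they were high, and so did 2 of the 16 (Ankrd37 and Ak4). After centring 29 of the 33 were above 0, where 53.7% of all genes were. The 4 below 0 were Hif3a, Pfkfb4 at -0.88, Car12 at -0.27 and Car9 at -0.10. Car9 also passed the signal limit only through the siENG array. Their median centred log2 ratio was 0.999. The largest centred log2 ratios were 4.03 for Pdk1, 3.03 for Ero1a and 2.68 for Bnip3, beside Ankrd37, whose BMP-2 array signal lay within the Bacillus range. P4ha1, at 1.81, was above the median of that list, while Plod2 at 0.76, P4ha2 at 0.61 and Lox at -0.41 were below it. A list of 7 further genes of the factors and their oxygen sensors left out Egln1, Egln3 and Hif3a, which were listed among the targets. Egln3, an oxygen sensor with signals of 13.3, 7.2 and 11.3, was under the limit. Egln1, an oxygen sensor, had a centred log2 ratio of 1.62. Of the 7, 0 were past either limit. The centred log2 ratio was -0.64 for Arnt, 0.43 for Vhl, -0.31 for Hif1an and 0.14 for Arnt2.

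The other proteins that fold, process and crosslink collagen gave a spread around 0. Over 27 past the signal limit the median centred log2 ratio was -0.07. On either scale 0 had a ratio of 0.5 or less, where 1.66% of all genes did as deposited and 2.7% after centring. Of the 27, 1 had a knockdown ratio of at least 2 as deposited and 0 did after centring, beside 4.04% and 2.32% of all genes. The 1 gene was P3h3, a prolyl 3-hydroxylase family member, with dim signals of 21.0, 13.7 and 31.5, which passed the limit in this comparison only through the siENG array. Bgn, a small proteoglycan that binds collagen, had signals of 27.8, 41.5 and 81.2. The procollagen proteinase Bmp1 had signals of 650.2, 737 and 495.5, and Pcolce2, which enhances its action, had 862, 1433 and 873, so both were highest on the BMP-2 array, as Loxl1 was. The remaining lysyl oxidases, Loxl3 and Loxl4, had centred log2 knockdown ratios of -0.21 and -0.39, with robust SDs of 0.30 and 0.39. All 4 lysyl oxidases read by a single-symbol probe set had a centred log2 ratio under 0, from -0.21 for Loxl3 to -1.11 for Loxl1. Of all genes 53.7% were above 0 after centring, so a value under 0 was common. As deposited, Loxl3 was level between the siENG and BMP-2 arrays, with signals of 434.1 and 434.9.

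Genes of collagen chains and elastic fibres had no knockdown ratio as large as that of P4ha1. Of 14 collagen and elastic fibre genes past the limit, 0 were past a ratio of 2 or of 0.5 on either scale. Few of all genes were, 4.04% and 1.66% as deposited and 2.32% and 2.7% after centring. The median centred log2 knockdown ratio was -0.15, in a range of -0.87 to 0.27. After centring 5 of the 14 were above 0, among them Col1a1 at 0.20 and Col3a1 at 0.15, where 53.7% of all genes were. Eln passed the limit only through the siENG array. The centred log2 ratio was -0.87 for Col12a1, which coats the fibrils, -0.46 for Col5a3, -0.37 for Col6a1 and -0.30 for Col6a3. Genes of folding and stress in the endoplasmic reticulum, where the hydroxylases work, had a median centred log2 ratio of 0.39 over 13 genes. Of these 2 were at or above a ratio of 2 on either scale, the stress factor Ddit3 at 1.25 and Herpud1, a part of the degradation machinery, at 1.13 after centring. Canx stood at 0.53 and Dnajb9 at -0.66, and 0 genes of this list were at 0.5 or less.

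**Figure D3:**
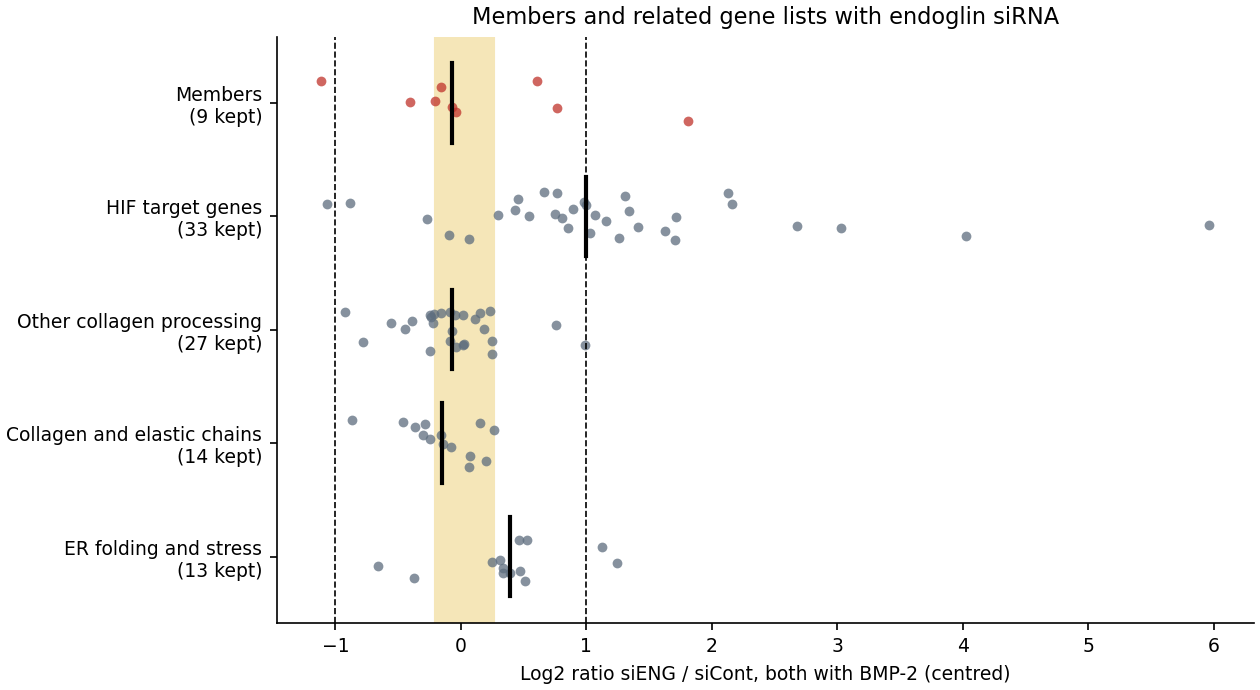
Centred log2 knockdown ratio with 1 point per gene past the limit, vertical bars at the medians, dashed lines at ratios of 2 and 0.5, and a shaded band between the quartiles of all genes. The bar lies at 0.999 for targets of the hypoxia-inducible factors and at -0.07 for the members, whose points run from -1.11 for Loxl1 to 1.81 for P4ha1.

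The genes nearest to a member were found by distance in the pair of log2 ratios, for BMP-2 and for knockdown, among 7180 genes with a highest signal of at least 152. These ratios come from 3 arrays and share the BMP-2 array, so a small distance is a weak likeness. P4ha1 had few neighbours, with 2 genes within a distance of 0.2. The nearest were Hilpda at 0.10, Zfas1 at 0.18, Ifi27l2a at 0.22, Ciart at 0.23 and Egln1 at 0.23, and Hilpda had signals of 106, 92.8 and 351. Plod2 had 96 genes within 0.2, led by Rap2c, Asah1, Mitd1, Fam135a and Nampt, and P4ha2 had 242, led by Smpd4, Ppp1r11, Zkscan1, Nsrp1 and 9130401M01Rik. Lox had 644, led by Ube3c, Smchd1, Srrt, Psma2 and Atxn1. Most genes had small ratios, so these counts follow from the size of a member's ratios and are not a separate result.

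Over all scalings, floors and summaries tried, the log2 knockdown ratio ran from 1.78 to 2.02 for P4ha1 and from 0.76 to 0.99 for Plod2. It ran from 0.60 to 0.82 for P4ha2 and from -0.52 to -0.20 for Lox. The second P4ha1 probe set taken alone was not a setting, and gave 1.55 as deposited and 1.34 after centring. Loxl1 ran from -1.47 to -0.90, with the lowest value from the mean over its probe sets, which includes the dim one. The values of P4ha3, P4hb, Plod1 and Plod3 took both signs, so no direction is given for them.

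**Figure D4:**
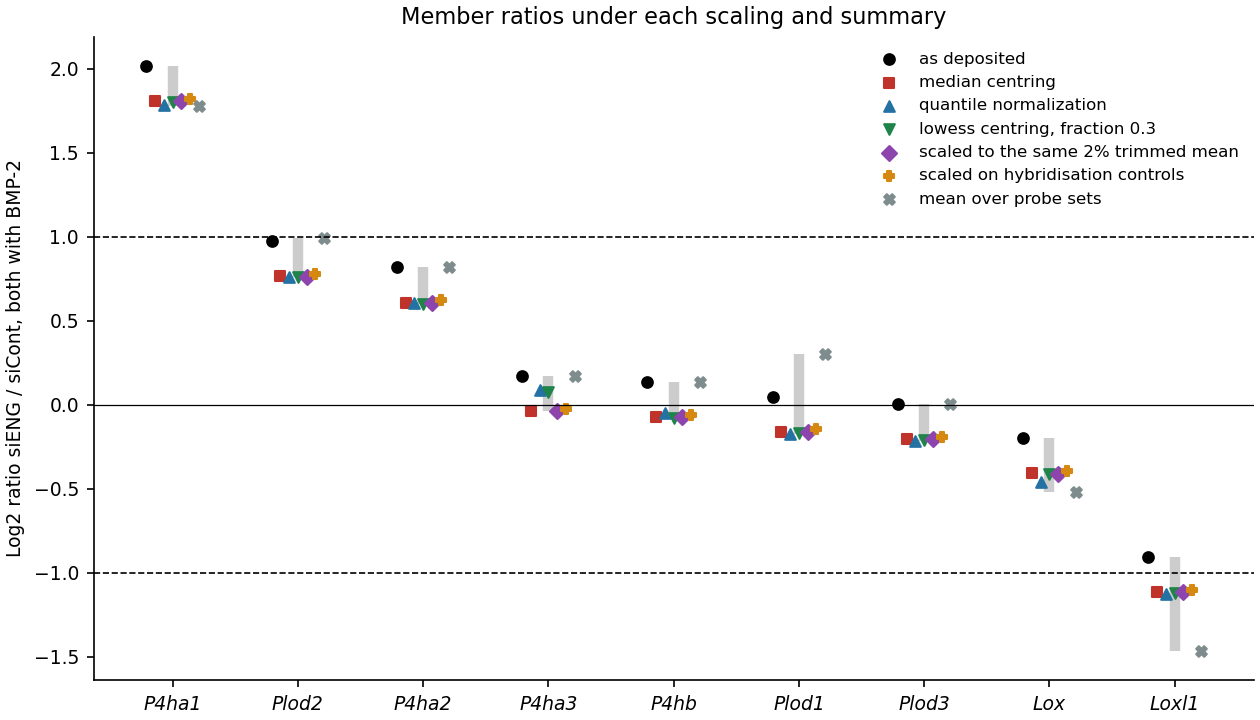
Log2 knockdown ratio of each member under 7 scalings and summaries (symbols), with grey bars for the full range over all settings tried and dashed lines at ratios of 2 and 0.5. P4ha1 stays at 1.78 or above and Lox and Loxl1 below 0 in every setting, while P4ha3, P4hb, Plod1 and Plod3 fall on both sides of 0. No setting takes the second probe set of P4ha1 alone.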

How the data were processed

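Total RNA of PDL-L2 cells was hybridised to Affymetrix Mouse Genome arrays, 1 for each of 3 conditions, and arrays were grouped by sample title. Values were used as the authors deposited them, as a linear intensity for each probe set. The submitters' processing notes name GCOS 1.4. Details of signal computation, background correction and scaling were not given in the sources used here, although scaling bears on every ratio. The 4 values listed at 0, none of a member, were set to 0.1, and 64 control probe sets were left out. The platform annotation gave 34958 probe sets 1 gene symbol, 932 several and 9211 none, and symbols were updated through gene identifiers in RefSeq (GRCm38.p6). Each gene was represented by the probe set that was brightest on average over the log2 signals. Genes entered a comparison if the brighter of its signals reached 23.0, and those doubled or halved were counted, with no test. For centred ratios the median over the non-control probe sets past that limit was subtracted on the log2 scale, within each comparison. The robust SD was 1.4826 times the median absolute deviation in 20 bins of mean log2 signal. The number of arrays limits the precision.

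Members and gene lists were chosen with earlier results of these data known. The genes named were all members, endoglin, up to 4 genes per list with the largest absolute centred log2 knockdown ratio, and the 5 genes nearest to P4ha1, P4ha2, Plod2 and Lox. Loxl3, Loxl4, Ak4, Slc16a3, Hif3a, Pfkfb4, Car12, Car9, Egln3, Eln, the markers and the genes of the closing section were named after their values were seen. Alternatives were median centring, quantile normalization, lowess centring (fraction 0.3), a common 2% trimmed mean, 18 hybridisation control probe sets, floors at 13.1 and 23.0, the mean over probe sets, probe sets without an _x_at or _s_at suffix, no signal limit and a limit at 152. Scripts were tested on simulated data. Python 3.11.15, numpy 2.4.6, pandas 2.3.3, scipy 1.17.1, statsmodels 0.14.6 and matplotlib 3.10.9 were used.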

Additional observations from a re-analysis of the deposited data

How the results depend on the processing

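No array could be left out, and no paired analysis was possible because each condition holds 1 sample. Of 243 member log2 ratios recomputed under the alternatives, 223 moved by less than the robust SD of probe sets of similar signal. The other 20 moved by more. Many could not move. The floors and the setting without _x_at or _s_at probe sets returned the deposited value for all members but P4ha3. The mean over probe sets did so for P4ha2, P4ha3, P4hb and Plod3. Of the few ratios past a limit as deposited, those of P4ha1 and Plod2, 0 changed sign. They lay at 1.07 or above on the log2 scale and median centring shifted them by 0.21 or 0.22. A change of sign was thus hardly possible, and its absence shows little. Ratios not past a limit did change sign, among them Loxl1 for siENG over vehicle, from -0.62 to 0.72. Loxl1 moved most, because the mean over probe sets takes in its dim one. For BMP-2 over vehicle that mean was 2.19 on the log2 scale, so 1 member in place of 0 was at or above a ratio of 2.

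The count of members with a knockdown ratio of 0.5 or less was 0 as deposited and 1, Loxl1, under median centring, quantile normalization, lowess centring, a common trimmed mean, the hybridisation controls and the mean over probe sets. For siENG over vehicle, 2 members at or above 2 became 1 under those same 5 scalings, which left Plod2 below 2, and the median log2 ratio of 0.25 became 0.66 with the mean over probe sets.

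Counts over all genes moved more. For BMP-2 over vehicle, 195 genes at or above 2 became 78 with a floor at 23.0, 1825 without a limit and 34 with the limit at 152, and 170 at or below 0.5 became 43, 1883 and 5, and 289 with the mean over probe sets. For the knockdown ratio, 438 at or above 2 became 252 under median centring, 287 under quantile normalization, 252 with a common trimmed mean, 263 on hybridisation controls, 270 with the floor at 23.0, 2160 without a limit and 125 with the limit at 152. The 180 at or below 0.5 became 293 under median centring, 294 with a trimmed mean, 283 on hybridisation controls, 45 with that floor, 1906 without a limit and 20 at 152. For siENG over vehicle, 433 became 244 under median centring, 240 with a trimmed mean, 277 on hybridisation controls, 2104 without a limit and 158 at 152, and 188 became 309 under median centring, 318 with a trimmed mean, 55 with the floor, 1990 without a limit and 28 at 152. Signals near the Bacillus controls limit what P4ha3 and the dim probe sets of Lox, Loxl1 and Plod1 can show.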

Other observations

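Fibromodulin (Fmod), a collagen-binding proteoglycan known to guide where lysyl oxidase forms crosslinks, had signals of 341 on the vehicle array, 810.1 on the BMP-2 array and 793 on the siENG array. Its probe set has an _x_at suffix, which marks possible cross-hybridisation. Its log2 BMP-2 ratio was 1.25 and its log2 knockdown ratio -0.03. It was the 1 gene of 26 in the collagen processing list with a BMP-2 ratio of at least 2, a limit passed by 1.8% of all genes. Fmod stayed high on the siENG array. Pcolce2 had a log2 BMP-2 ratio of 0.73 and a log2 knockdown ratio of -0.72. Serpinh1, the collagen chaperone, and Sparc, a collagen-binding matrix protein, had centred log2 knockdown ratios of 0.11 and -0.09.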
